A study of Mus musculus with 6 samples.

Results

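Genes for RNA splicing, RNA helicases and mRNA turnover were examined in the hippocampus of mice exposed to prolonged corticosterone (CORT), the hormone through which the rodent adrenal signals stress. The members were chosen by gene symbol alone, as every listed gene of the Rbm, Hnrnp, Srsf, Srrm, Srek, Ddx, Dhx, Sf3, Prpf, Snrp, Luc7l, Celf, Rbfox, Elavl, Nova, Mbnl, Tra2, Clk, Dcp, Cnot and Cpsf families. This rule found 24 of the 2404 genes in the table. None of them was an Hnrnp, Srrm, Srek, Sf3, Snrp, Celf, Rbfox, Elavl, Nova or Cpsf gene, and such genes were not analysed here. Hippocampal RNA came from 3 male C57BL/6 mice, aged 7 to 8 weeks when the injections began, that received CORT (40 mg/kg, subcutaneously, every day for 36 days), and from 3 that received vehicle injections on the same schedule. CORT was dissolved in DMSO and Tween-80 in water, and both groups were without a transgene. Each value is a TPM (a transcript abundance in parts of a fixed library total), scaled for transcript length. The table lists only genes that the authors' own test had picked on these same 6 libraries, so a low p from the same libraries cannot count as separate evidence that a gene changed.

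Splicing removes introns from the primary transcript and joins the exons. The spliceosome assembles on each intron from small nuclear ribonucleoproteins (snRNPs) and many further proteins, SR proteins and RBM proteins steer it towards or away from an exon, and kinases of the Clk family set the activity of SR proteins by phosphorylation. DEAD and DEAH box helicases use ATP to remodel RNA and RNA-protein complexes at nearly every step from transcription to decay, and neurons are known for an unusually rich use of alternative exons. Glucocorticoids act through a receptor that enters the nucleus and binds to response elements in DNA.

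The members moved in both directions. Testing required a TPM of 1 or more in 3 or more libraries. Of the 23 members that met this filter, 6 were higher and 3 were lower in the CORT group at an adjusted p under 0.05, and 14 did not pass (limma on log2(TPM + 1), Benjamini-Hochberg adjustment over 2241 listed genes). Dhx33, Prpf38a, Rbm15, Cnot4, Prpf4b and Rbm38 rose, and Ddx39a, Ddx17 and Rbm4b fell. Among all genes tested 25.8% were called higher and 24.7% lower, so the members' counts stood near the background in the upward direction and below it in the downward one. The tested members whose CORT libraries all lay above every vehicle library numbered 11, and those with the reverse order numbered 5, against 35.4% and 34.4% of all genes tested. The changes were small, with called log2 differences (CORT minus vehicle) of between 0.23 and 0.52 in size. A positive difference was found in 15 members and a negative one in 8 (65.2% positive, against 50.4% of all genes tested), and the median difference was 0.20, against 0.05 over all genes tested.

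**Figure D1:**
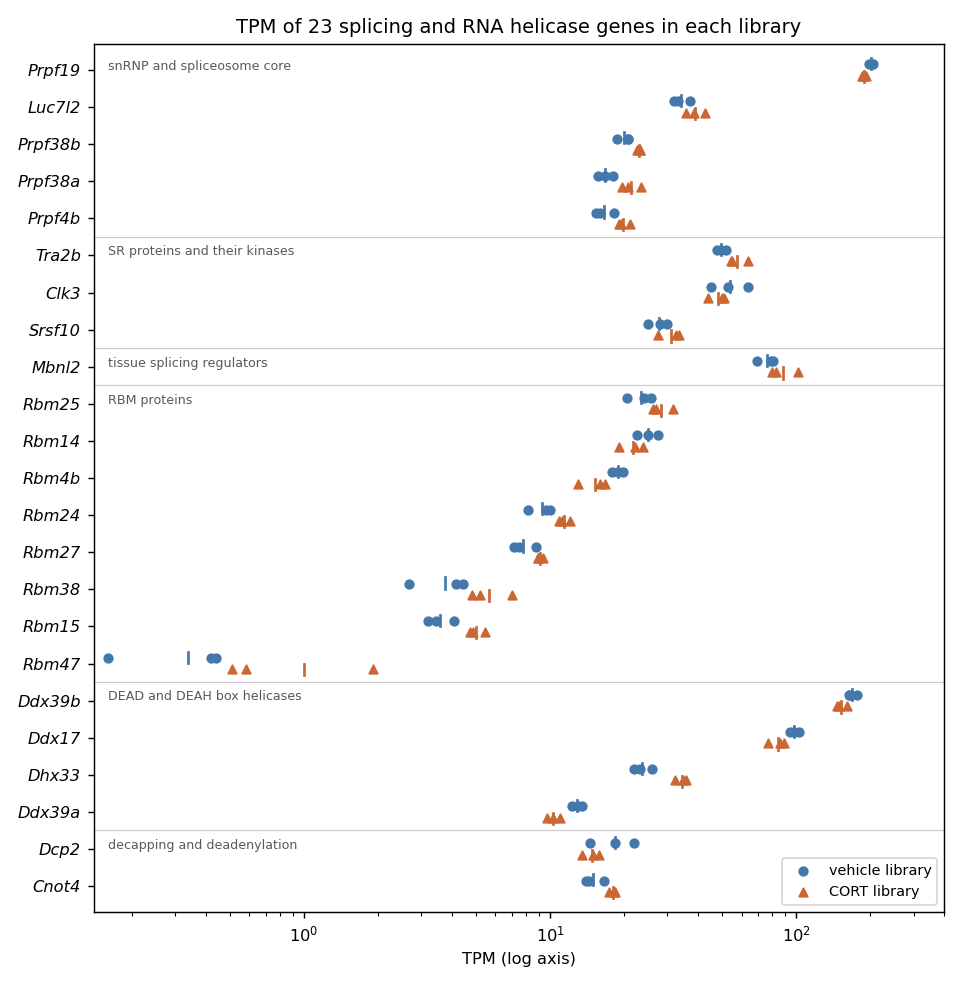
TPM of 23 splicing and RNA helicase genes on a log axis, with 1 circle for each of the 3 vehicle libraries, 1 triangle for each of the 3 CORT libraries and a vertical bar at each group's mean. Genes are grouped by role, and levels run from a mean TPM of 0.67 for Rbm47 to 195 for Prpf19. The groups of the tested genes lie close together. The means of Rbm47, which was too low to test, lie further apart, with 1 CORT library well above all others.

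The balance of the directions depended on how the libraries were scaled. With quantile normalization 3 members were higher and 3 were lower, with each library centred on its median 4 were higher and 6 lower, and after a correction for the GC content of the transcripts 3 were higher and 5 lower. The correction took each gene's departure from its own mean log2 level over the libraries. It removed from each library a smooth curve of that departure on GC content. The curve was fitted to listed genes only, so the correction also removes any difference that genes of like GC content share. Over all genes tested the same settings gave 503 higher and 635 lower, 485 and 772, and 397 and 481, against 579 and 554 without them. Most calls also changed when a single library was left out, which leaves fewer libraries for the test as well. Whether a call was lost through that library's values or through the smaller number of libraries was not tested. Without vehicle replicate 1, 2 members were higher and 3 lower, without vehicle replicate 2 these numbers were 1 and 0, and without vehicle replicate 3 they were 9 and 1. Without CORT replicate 1 they were 1 and 0, without CORT replicate 2 they were 2 and 2, and without CORT replicate 3 they were 1 and 0. Where no member was called lower by limma, 4, 2 and 2 members were lower at an unadjusted p under 0.05 (without vehicle replicate 2, CORT replicate 1 and CORT replicate 3). Over all genes tested these fits called between 27.8% and 54.3%, against 50.6% with all libraries. Dhx33 was the only member that passed in all 15 alternative settings.

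The promoters of the members are shown for 2 kinds of motif. One is the glucocorticoid element, because the hormone's receptor binds DNA. The other is the motif found in the most members among those with a higher share here than in the listed genes. RefSeq promoters on GRCm38.p6 matched 20 of the 24 members (Ddx39a, Dcp2 and Rbm27 were among those with no match), and the 250 bases before the transcription start were searched on both strands. The whole glucocorticoid response element, AGAACA and TGTTCT with any 3 bases between them, was in none of the 20, against 0.0564% of 1772 listed genes and 0.0111% of all 27025 genes with a promoter. Its arm AGAACA, which is contained in the whole element, was in 2 of the 20 (10%), against 13.8% of listed and 18.2% of all genes. Those members were Rbm25, at chr12:83635460-83635490 on the plus strand and positions -250 to -220 from the start, and Ddx39b, at chr17:35241551-35241606 on the plus strand and positions -195 to -140. Capitals mark the motif, which reads on the opposite strand in Rbm25:
Rbm25: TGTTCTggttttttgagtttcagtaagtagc
Ddx39b: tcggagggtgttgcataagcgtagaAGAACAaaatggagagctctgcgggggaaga

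The half-site TGACG of the cAMP response element, to which CREB family factors are known to bind, was in 11 of the 20 promoters (55%), against 27.1% of listed and 19.8% of all genes. The whole element was not searched for. It was picked for printing after these shares were seen. Of the 11 genes, 7 had a positive and 4 a negative difference between the groups. The ETS motif CCGGAAG was in 5 of the 20 (25%, against 9.65% of listed and 7.83% of all genes). Of these 5, 1 had a positive and 4 a negative difference. The GC box GGGCGG was in 12 (60%, against 67.3% of listed and 35.4% of all genes), and CCAAT in 9 (45%, against 42% and 37.5%). The E-box CACGTG was in 2 (10%, against 10.9% and 6.86%). Among tested members 8 with the GC box had a positive and 3 a negative difference. These numbers were 6 and 3 with CCAAT, 2 and 0 with the E-box, and 1 and 1 with AGAACA. None of these letter strings contains another. The median GC content of the searched bases was 59% in the members, 61.2% in the listed genes and 52.4% in all promoters. The median number of cytosines followed directly by a guanine was 18, 15 and 6 in the same order. This pair of bases is part of the half-site of the cAMP response element, the ETS motif, the GC box and the E-box. Whether the number of such pairs had a part in the motif shares was not tested. A match is a description of the letters and not evidence of binding. The windows below hold the motif in capitals within up to 25 bases on either side, read 5′ to 3′ along each gene's own strand, which is the minus strand in all 5. Dhx33 is at chr11:71004630-71004682 (positions -250 to -198), Prpf38a at chr4:108579337-108579376 (-40 to -1), Prpf38b at chr3:108911730-108911774 (-45 to -1), Tra2b at chr16:22266037-22266091 (-86 to -32) and Ddx17 at chr15:79546771-79546825 (-84 to -30). The motif reads as TGACG in Prpf38a and Ddx17 and as its reverse complement in the others:
Dhx33: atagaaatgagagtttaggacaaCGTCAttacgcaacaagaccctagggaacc
Prpf38a: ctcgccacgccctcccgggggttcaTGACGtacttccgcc
Prpf38b: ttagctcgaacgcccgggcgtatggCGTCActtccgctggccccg
Tra2b: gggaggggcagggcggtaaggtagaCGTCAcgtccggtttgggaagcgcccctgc
Ddx17: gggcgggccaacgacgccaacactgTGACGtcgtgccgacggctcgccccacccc

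Of 6 core spliceosome genes, 2 rose, Prpf38a and Prpf4b, and 4 did not pass, with a median log2 difference of 0.22. Among all genes tested 25.8% were called higher and 24.7% lower, and the median was 0.05. The counts within a role group describe few genes and are not read as a result about the group. Prpf38a (ENSMUSG00000063800) belongs to the spliceosome before its activation, and its yeast counterpart is needed for the release of U4. Its TPM was 18.06, 15.66 and 16.66 in the vehicle libraries and 23.42, 19.58 and 20.72 in the CORT libraries. Every CORT library lay above every vehicle library. The means were 16.8 ± 1.21 (SD, n = 3) and 21.2 ± 1.97 (SD, n = 3), a log2 difference of 0.32 (SE 0.096, adjusted p = 0.0267 from limma). After the GC correction the log2 difference of Prpf38a was 0.15 (adjusted p = 0.22 from limma). The adjusted p from limma was also above the threshold without vehicle replicate 2 (0.0703), CORT replicate 1 (0.0883) and CORT replicate 3 (0.0533).

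Prpf4b (ENSMUSG00000021413), a kinase of the tri-snRNP known to phosphorylate other spliceosomal proteins, had a TPM of 15.43, 15.92 and 18.23 in the vehicle group and 19.37, 21.17 and 19.09 in the CORT group. The groups did not overlap, but vehicle replicate 3 lay close to the lowest CORT library. Prpf4b rose by a log2 difference of 0.25 (SE 0.093, adjusted p = 0.0469 from limma), which after the GC correction was 0.034 (adjusted p = 0.72 from limma). The call of Prpf4b was thus lost with the correction. It was also lost with quantile normalization and with median centring (adjusted p = 0.0818 and 0.0537 from limma), and it was lost as well in every fit without 1 library except that without vehicle replicate 3, with an adjusted p of 0.0751 (without CORT replicate 3) to 0.144 (without CORT replicate 2) from limma.

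Prpf38b, a relative of Prpf38a, had a TPM of 18.70, 20.68 and 20.66 in the vehicle group and 23.16, 22.57 and 23.18 in the CORT group. Its groups did not overlap and its CORT libraries were nearly equal, but its log2 difference of 0.19 did not pass (SE 0.079, adjusted p = 0.0639 from limma).

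Prpf19 (ENSMUSG00000024735), a ubiquitin ligase at the centre of the complex that stabilises the active spliceosome, had the highest level of all 24 members. Its TPM was 205.13, 197.39 and 203.86 in the vehicle group and 186.44, 184.67 and 192.58 in the CORT group. All CORT libraries lay below all vehicle libraries. The log2 difference was -0.10 (SE 0.049, adjusted p = 0.0831 from limma), and with the GC correction it was -0.17 (adjusted p = 0.0186 from limma), which passed. With median centring it was -0.16 and passed as well (adjusted p = 0.0462 from limma). With quantile normalization it was -0.028 and did not pass (adjusted p = 0.539 from limma). Luc7l2, a relative of a yeast U1 snRNP protein that takes part in the choice of the 5′ splice site, had a mean TPM of 33.9 and 39.0 in the vehicle and CORT groups and overlapping libraries (log2 difference 0.19, adjusted p = 0.0843 from limma).

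The SR proteins Tra2b and Srsf10 and the kinase Clk3 did not pass the test. At an unadjusted p under 0.05 from limma, 1 of the 3 was higher and none was lower. Of all 2241 genes tested 768 were higher and 714 lower at that level. Tra2b (ENSMUSG00000022858) promotes the inclusion of exons rich in GAA repeats. Its TPM was 49.67, 51.81 and 47.60 in the vehicle group and 63.75, 55.07 and 54.36 in the CORT group, so that the groups did not overlap and CORT replicate 1 stood above the other 2. This gave a log2 difference of 0.21 (SE 0.079, adjusted p = 0.0513 from limma), just short of the threshold, and 0.0010 after the GC correction.

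Srsf10, an SR protein that acts as a splicing repressor when dephosphorylated, had a TPM of 24.99, 27.94 and 29.98 in the vehicle group and 33.27, 32.57 and 27.45 in the CORT group. CORT replicate 3 lay inside the vehicle range. Its log2 difference was 0.16 (adjusted p = 0.154 from limma), and it turned to -0.049 after the GC correction. Clk3 had a TPM of 63.62, 45.10 and 52.89 in the vehicle group and 50.99, 43.85 and 50.01 in the CORT group. Its groups overlapped, and its log2 difference of -0.14 had the largest adjusted p of all members tested (0.27 from limma, 95% interval of the difference -0.41 to 0.12).

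Mbnl2 (ENSMUSG00000022139), a muscleblind protein known to establish adult splicing patterns in brain, had a TPM of 69.19, 78.82 and 80.69 in the vehicle group and 101.64, 82.77 and 80.01 in the CORT group. CORT replicate 1 alone stood well above the vehicle libraries. The log2 difference was 0.20 (SE 0.099, adjusted p = 0.095 from limma) and turned to -0.024 after the GC correction.

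Of 8 RBM genes, 7 were tested, Rbm15 and Rbm38 rose, Rbm4b fell and 4 did not pass, with a median log2 difference of 0.26. The shares over all genes tested were 25.8% higher and 24.7% lower, with a median of 0.05. Rbm15 (ENSMUSG00000048109) brings the m6A methyltransferase complex to its target RNAs. Its TPM was 3.44, 3.19 and 4.07 in the vehicle group and 4.86, 5.46 and 4.75 in the CORT group, without overlap. The means were 3.57 ± 0.454 (SD, n = 3) and 5.02 ± 0.382 (SD, n = 3), a log2 difference of 0.40 (SE 0.12, adjusted p = 0.0271 from limma). The GC correction left this difference at 0.39 (adjusted p = 0.0207 from limma), but with GC content taken from the longest transcript of any kind it was 0.23 and did not pass (adjusted p = 0.0968 from limma). The call of Rbm15 was lost when any library other than vehicle replicate 3 was left out, with an adjusted p of 0.0533 (without CORT replicate 3) to 0.0927 (without CORT replicate 2) from limma.

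Rbm38 (ENSMUSG00000027510) is induced by p53 and is known to stabilise the mRNA of p21, the cell cycle inhibitor at the centre of the study. Its TPM was 4.45, 2.67 and 4.16 in the vehicle group and 4.80, 5.19 and 7.04 in the CORT group. The groups did not overlap, although vehicle replicate 1 and CORT replicate 1 were close, and both groups were spread widely (coefficient of variation 25.4% and 21.1%). The log2 difference was 0.49 (SE 0.18, adjusted p = 0.0479 from limma) and 0.67 after the GC correction (adjusted p = 0.0173 from limma). Rbm38 passed in 5 of 15 alternatives and in none that left out a library, where the adjusted p was 0.0532 (without CORT replicate 1) to 0.133 (without CORT replicate 3) from limma. Quantile normalization and median centring ended its call too (adjusted p = 0.0657 and 0.0557 from limma). Rbm24, the close relative of Rbm38 and a splicing regulator best known from muscle, had a TPM of 10.03, 8.17 and 9.61 in the vehicle group and 10.87, 11.16 and 12.03 in the CORT group. Its groups did not overlap, and its log2 difference of 0.27 missed the threshold (SE 0.10, adjusted p = 0.0543 from limma).

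Rbm4b (ENSMUSG00000033760), a regulator of alternative exons, had a TPM of 17.78, 19.72 and 18.89 in the vehicle group and 15.95, 16.67 and 13.03 in the CORT group. Every CORT library lay below every vehicle library, and CORT replicate 3 was the lowest. The log2 difference was -0.29 (SE 0.11, adjusted p = 0.0449 from limma) and -0.37 after the GC correction (adjusted p = 0.026 from limma). The call of Rbm4b was lost in every fit without 1 library except that without CORT replicate 2, with an adjusted p of 0.0658 (without CORT replicate 1) to 0.139 (without CORT replicate 3) from limma. The transcript of Rbm4b matched that of its paralog Rbm4 at 86.1% identity over 61.1% of its length, so reads could be divided between them in the counting.

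Rbm25, which binds exonic RNA and acts with the U1 snRNP, had the highest level among the RBM genes. Its TPM was 20.61, 24.10 and 25.70 in the vehicle group and 31.57, 26.32 and 26.83 in the CORT group. The groups did not overlap, but vehicle replicate 3 lay within 1 TPM of the lowest CORT library, and the log2 difference of 0.26 did not pass (SE 0.11, adjusted p = 0.0624 from limma). Rbm27, a zinc finger protein of nuclear RNA decay, and Rbm14, a paraspeckle protein and transcriptional coactivator, had log2 differences of 0.20 and -0.20 (adjusted p = 0.105 and 0.116 from limma). Rbm47, a cofactor of C-to-U RNA editing, was too low to test. Its TPM was 0.44, 0.16 and 0.42 in the vehicle group and 0.58, 0.51 and 1.91 in the CORT group, where CORT replicate 3 held most of the signal.

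The 4 helicases divided, with a rise of Dhx33, a fall of Ddx39a and Ddx17, and no call for Ddx39b. The shares over all genes tested were 25.8% higher and 24.7% lower. Dhx33 (ENSMUSG00000040620) is a DEAH box helicase known for its part in ribosomal RNA synthesis and, in human cells, in the sensing of cytosolic RNA. Its TPM was 21.86, 23.30 and 25.94 in the vehicle group and 35.76, 34.79 and 32.30 in the CORT group. The gap between the highest vehicle and the lowest CORT library exceeded the range within either group. The means were 23.7 ± 2.07 (SD, n = 3) and 34.3 ± 1.79 (SD, n = 3), a ratio of 1.45 and a log2 difference of 0.52 (SE 0.086, adjusted p = 0.0026 from limma). The log2 difference of Dhx33 was between 0.42 and 0.58 over the 15 alternatives, with adjusted p-values of 0.00211 to 0.0109 from limma, and it was 0.42 after the GC correction. The exact two-sided permutation test of such a separation gives p = 0.1, the smallest that 3 libraries against 3 allow.

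Ddx39a (ENSMUSG00000005481) and Ddx39b are close relatives that act in the export of mRNA, and Ddx39b also takes part in the recruitment of the U2 snRNP. Ddx39a had a TPM of 12.27, 12.94 and 13.45 in the vehicle group and 9.72, 11 and 10.26 in the CORT group. The groups did not overlap and both were tight. The means were 12.9 ± 0.592 (SD, n = 3) and 10.3 ± 0.643 (SD, n = 3), a log2 difference of -0.29 (SE 0.093, adjusted p = 0.0304 from limma), and it was -0.31 after the GC correction. The adjusted p from limma was 0.0629 without vehicle replicate 2 and 0.0934, 0.0526 and 0.0743 without CORT replicates 1, 2 and 3. The exons of Ddx39a share 895 bases with Adgre5 on the opposite strand. Adgre5, a leukocyte adhesion receptor, had a TPM of 5.65, 6.96 and 5.91 in the vehicle group and 4.81, 4.20 and 3.96 in the CORT group. It was lower as well (log2 difference -0.43, adjusted p = 0.0214 from limma), and reads of the pair cannot be told apart in the shared bases unless strand was used in the counting. The methods speak of alignment in orientation mode and do not say whether the counting used strand.

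Ddx39b had a TPM of 176.00, 163.77 and 164.96 in the vehicle group and 149.28, 160.60 and 146.63 in the CORT group. All CORT libraries lay below all vehicle libraries, CORT replicate 2 by little, and the log2 difference of -0.14 did not pass (SE 0.058, adjusted p = 0.0601 from limma). It passed with median centring alone of all alternatives (adjusted p = 0.0427 from limma). Ddx17 (ENSMUSG00000055065), a coactivator that also takes part in splicing and in microRNA processing, had a TPM of 94.47, 97.52 and 102.72 in the vehicle group and 76.63, 89.54 and 85.73 in the CORT group. The CORT libraries were again all lower. The log2 difference of Ddx17 was -0.23 (SE 0.072, adjusted p = 0.0315 from limma) and -0.31 after the GC correction (adjusted p = 0.0107 from limma). Of the 3 members that fell, all passed with quantile normalization, with median centring and with the GC correction, and each lost its call in some fits without 1 library. For Ddx17 these were the fits without vehicle replicates 2 and 3 (adjusted p = 0.0594 and 0.0692 from limma) and without CORT replicates 1 and 3 (0.0993 and 0.0555). Ddx17 also did not pass with all libraries when limma was run without the trend and robust options (adjusted p = 0.0554).

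The 2 genes of mRNA turnover differed in sign. Cnot4 (ENSMUSG00000038784), a ubiquitin ligase that joins the CCR4-NOT deadenylase complex, had a TPM of 14.06, 14.39 and 16.58 in the vehicle group and 18.17, 17.44 and 18.38 in the CORT group, without overlap. It rose by a log2 difference of 0.25 (SE 0.091, adjusted p = 0.0466 from limma), which was 0.085 after the GC correction (adjusted p = 0.32 from limma). Quantile normalization also ended the call, leaving 0.18 (adjusted p = 0.0745 from limma). Only the fit without vehicle replicate 3 kept the call of Cnot4 among those without 1 library, the others giving an adjusted p of 0.092 (without CORT replicate 2) to 0.117 (without vehicle replicate 1) from limma. Dcp2, the enzyme that removes the mRNA cap, had a TPM of 14.56, 18.41 and 21.89 in the vehicle group and 14.99, 13.45 and 15.85 in the CORT group. Vehicle replicate 1 lay among the CORT libraries, and the log2 difference was -0.28 (SE 0.14, adjusted p = 0.0991 from limma). After the GC correction Dcp2 passed, with a log2 difference of -0.47 (adjusted p = 0.0145 from limma), and it also passed without vehicle replicate 1 (adjusted p = 0.0336 from limma). With median centring its difference was -0.33 and passed too (adjusted p = 0.0476 from limma). With quantile normalization the difference was -0.34 and did not pass (adjusted p = 0.0579 from limma).

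**Figure D2:**
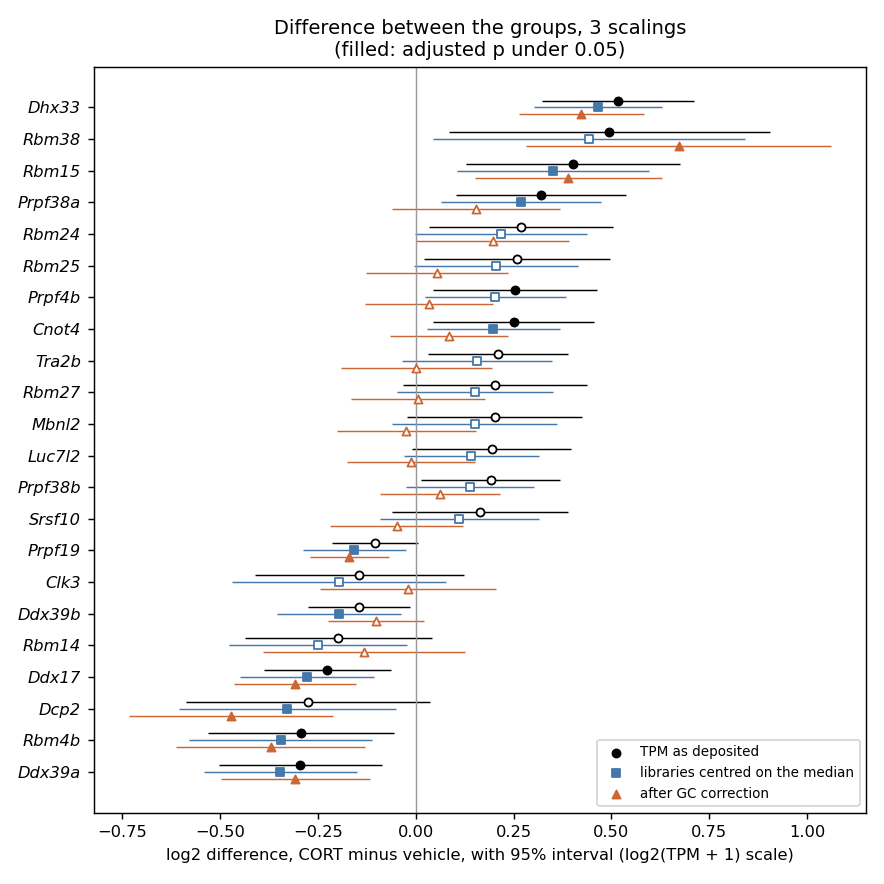
Log2 difference between the groups (CORT minus vehicle, log2(TPM + 1) scale) of 22 members tested, with 95% intervals, for TPM as deposited, for libraries centred on their median and after the GC correction. Filled symbols passed an adjusted p under 0.05. After the GC correction Prpf4b, Cnot4 and Prpf38a are open, while Dcp2 and Prpf19 are filled on the negative side. Dcp2 and Prpf19 are also filled for libraries centred on their median.

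Direction went with the GC content of the transcript in the members as in the table. The median GC content of the longest coding transcript was 42.6% in the 15 members with a positive difference and 51.7% in the 8 with a negative one. Over all genes tested these medians were 47.4% and 55.1%. When the genes tested were divided by GC content into 5 groups of equal size, 8 of 9 members in the lowest had a positive difference, Dcp2 being the exception, and 86.2% of all genes tested there did. In the next group 4 of 4 members and 66.7% of all genes were positive, and in the middle group 2 of 6 members (Rbm15 and Rbm24) and 47.1% of all genes. In the 2 highest groups Rbm38 was the only 1 of 4 members with a positive difference, where 32.9% and 19.2% of all genes were positive. Spearman's rho between GC content and log2 difference was -0.21 over the 23 members and -0.37 over 2238 genes, as a description across genes measured in the same libraries. The median log2 difference of the members was 0.20 before and 0.0010 after the GC correction. Dcp2 and Rbm38 are members whose difference was opposite in sign to most genes of their GC range. The correction takes away what genes of like GC content share. It therefore makes such differences larger by construction, as it did for both genes. Whether GC content had a part in these differences was not tested.

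**Figure D3:**
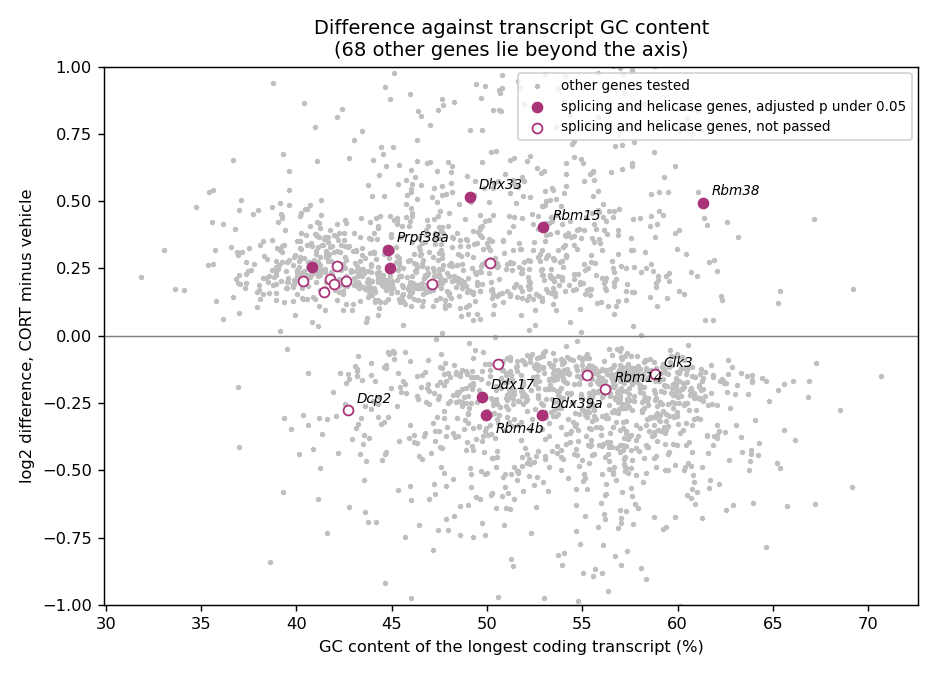
Log2 difference (CORT minus vehicle) against the GC content of the longest coding transcript for genes tested, with the members as large circles, filled where the adjusted p was under 0.05. The gap around 0 reflects the choice of the listed genes by difference. Most members below 45% GC lie above 0, with Dcp2 below it, and Rbm38 lies above 0 at 61.3%.

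The libraries did not contribute equally. Among the 15 members with a positive difference, CORT replicate 1 was the highest CORT library for 8 and vehicle replicate 1 the lowest vehicle library for 9, against 39.5% and 47.7% of all genes with a positive difference. Vehicle replicate 3 was the lowest for 1 member, Tra2b, against 9.2% of those genes. It was thus seldom the vehicle library farthest from the CORT group among these members. Without it Rbm25, Rbm27 and Luc7l2 were among the members that passed as higher in addition. Among the 8 members with a negative difference the reverse held more often. There vehicle replicate 3 was the highest vehicle library, the farthest from the CORT group, for 4, against 32% of all genes with a negative difference. Without it 1 member was called lower, against 3 with all libraries. The summed TPM of the 24 members was 927.3, 916.1 and 965.9 in the vehicle libraries and 960.3, 940.5 and 924.9 in the CORT libraries, which overlapped. The 2 members with a mean TPM over 100, Prpf19 and Ddx39b, weigh most in it, and both had a negative difference. As a share of the listed genes' TPM the sum was 0.317%, 0.314% and 0.323% in vehicle and 0.305%, 0.305% and 0.307% in CORT, without overlap. The listed genes held 29.3%, 29.2% and 29.9% of all TPM in vehicle and 31.5%, 30.8% and 30.1% in CORT. Within the groups the median coefficient of variation of the tested members was 9.05% (vehicle) and 8.02% (CORT).

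**Figure D4:**
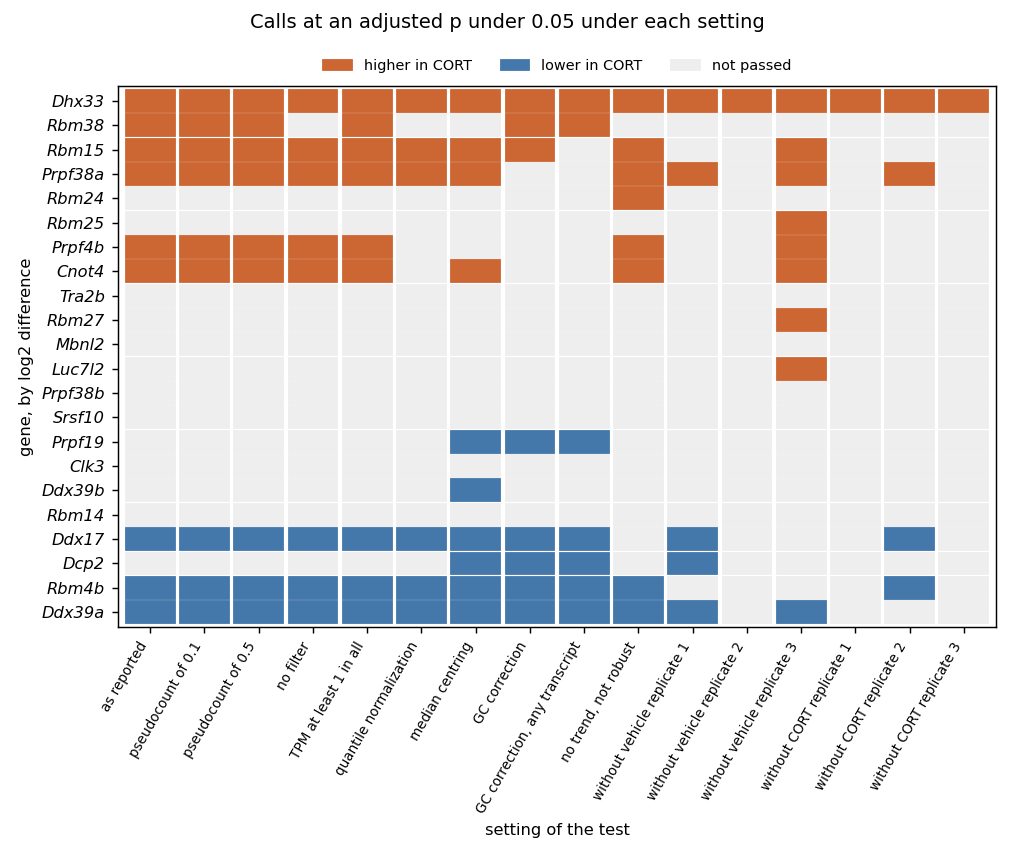
Calls at an adjusted p under 0.05 for 22 members tested (rows, by log2 difference) under the reported setting and 15 alternatives (columns), in orange where higher and in blue where lower in the CORT group. Dhx33 alone is coloured in every column, and in 3 of the 6 columns that leave out a library it is the only coloured gene.

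The members share features of annotation that the choice by symbol did not use. A transcript with a retained intron is annotated for 18 of the 24 members (75%), against 49.1% of 2401 listed genes, and a transcript marked for nonsense-mediated decay for 11 (45.8%), against 20.9%. The median number of annotated transcripts was 8, against 4. Splicing factors are known to control their own level through such transcripts, and the TPM of a gene adds up all its transcripts, so a shift between coding and retained-intron forms cannot be read from these values. Several further members have near copies or overlapping genes. Prpf38a matched a processed pseudogene, Gm19181, at 90.1% identity over 62.4% of its transcript, and Clk3 matched AC157214.1 at 82.0% over 60.5%. Matches to processed pseudogenes over a smaller part of the transcript were found for Tra2b (98.7% identity over 25.5% of the length) and Luc7l2 (96.5% over 21.3%). Prpf19 (92.1% over 21.04%), Srsf10 (97.8% over 14.7%) and Prpf4b (83.4% over 13.6%) had such matches too. The exons of Rbm14 share 727 bases with Gm21992 on the same strand, those of Clk3 share 1284 with Edc3, those of Luc7l2 share 2284 with Gm26699 and those of Rbm4b share 3069 with Gm37206 on the opposite strand. The values of these members are therefore uncertain to an extent that was not tested.

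Among 312 genes in fixed lists of splicing, decay and nuclear RNA, 12 were members and 22 others were in the table, of which 5 rose (Zfp36, Bclaf1, Tob2, Scaf4 and Syncrip), 4 fell (Neat1, Miat, Zfp36l2 and Zfp36l1) and 13 did not pass. The background was 25.8% called higher and 24.7% called lower, so these counts were near or below it. The Zfp36 family, whose proteins bind AU-rich elements and recruit the deadenylase, moved in opposite directions. Zfp36 (tristetraprolin) had a TPM of 2.67, 2.49 and 3.36 in the vehicle group and 5.94, 7.25 and 6.28 in the CORT group. Its CORT libraries were all well above the vehicle range, with a log2 difference of 0.97 (SE 0.13, adjusted p = 0.00103 from limma). Zfp36l2 had a TPM of 13.00, 12.23 and 13.86 in the vehicle group and 9.28, 8.90 and 8.86 in the CORT group, a fall with a log2 difference of -0.49 (SE 0.092, adjusted p = 0.00467 from limma). Zfp36l1 fell likewise, by 0.40 on the log2 scale (adjusted p = 0.0167 from limma, and 0.0549 without CORT replicate 2). Zfp36 and Zfp36l2 passed in all 15 alternatives. Tob2, an antiproliferative protein that also binds the deadenylase, rose by a log2 difference of 0.44 (SE 0.13, adjusted p = 0.0271 from limma), but it did not pass without vehicle replicates 1 or 2 or CORT replicates 1 or 3 (adjusted p of up to 0.0821 from limma). The number of list genes that rose was 3 after the GC correction, 2 when vehicle replicate 1 or CORT replicate 1 was left out, 3 when vehicle replicate 2 was, and 8 when vehicle replicate 3 was. Of all genes tested 579 were called higher with all libraries and 397 after the GC correction. Without vehicle replicates 1, 2 and 3 these were 339, 382 and 741, and without CORT replicate 1 they were 349. In these settings the list counts thus moved in the same direction as those over all genes.

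Of 4 listed genes related to SR proteins, Bclaf1 and Scaf4 rose (log2 differences of 0.48 and 0.39, adjusted p = 0.0157 and 0.0373 from limma), and Cdk12 and Ccnl2 did not pass (0.21 and -0.16). The shares over all genes tested were 25.8% higher and 24.7% lower. Bclaf1, a nuclear protein of splicing complexes, had a TPM of 30.41, 25.74 and 32.90 in the vehicle group and 48.70, 36.03 and 41.38 in the CORT group, without overlap, but its adjusted p was 0.11 after the GC correction. Scaf4 passed only with all libraries or without CORT replicate 3 (adjusted p of up to 0.111 from limma in the other fits without 1 library). The hnRNP relative Syncrip rose by a log2 difference of 0.30 (adjusted p = 0.0196 from limma), which was 0.036 after that correction (adjusted p = 0.69 from limma), and its call was lost without vehicle replicate 1 or CORT replicate 1. None of the 3 tri-snRNP and B or C complex genes Mfap1a, Cwc15 and Cdc40 passed, with log2 differences of 0.26, 0.20 and 0.19. At an unadjusted p under 0.05 from limma 2 of them were higher and none lower. Of all 2241 genes tested 768 were higher and 714 lower at that level. The U1 and U2 related genes Htatsf1 and Sf1 (0.18 and -0.084), the decay helicase Upf1 (-0.14), Tnrc6b and Tnrc6c of the microRNA pathway (0.23 and 0.21) and the poly(A) binding proteins Pabpn1 and Pabpc1 (-0.34 and 0.10) did not pass either.

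The nuclear long noncoding RNA Neat1, the scaffold of paraspeckles, had a TPM of 14.23, 18.91 and 19.43 in the vehicle group and 12.21, 10.67 and 10.83 in the CORT group. It fell without overlap (log2 difference -0.59, SE 0.13, adjusted p = 0.00798 from limma), and -0.72 was its difference after the GC correction. The paraspeckle protein gene Rbm14 had a TPM of 22.46, 25.01 and 27.38 in the vehicle group and 19.02, 23.77 and 22.15 in the CORT group, which overlapped. Miat, a neuronal long noncoding RNA that binds splicing factors, fell by 0.52 on the log2 scale (adjusted p = 0.0164 from limma). Neat1 and Miat passed in all 15 alternatives, and Rian did not pass (0.13, adjusted p = 0.0533 from limma).

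Some markers of other cell types were called between the groups as well. Among all genes tested 25.8% were called higher and 24.7% lower. In whole tissue fewer cells of a type and less RNA per cell cannot be told apart. Of 14 microglial markers 7 were in the table, 1 was higher and 5 were lower, with a summed TPM of 190 to 210.4 in the vehicle and 124.7 to 158.6 in the CORT libraries. Of 11 endothelial markers 8 were in the table, 1 was higher and 5 were lower, with summed TPM of 157.9 to 179.5 and 185.1 to 196.9. The endothelial sum was higher although 7 of the 8 had a negative difference, the exception being Slc2a1. Of 10 astrocyte markers 5 were in the table and 2 were lower (1635 to 1709 and 1492 to 1511), and of 15 oligodendrocyte markers 3 were in the table, with 1 higher and 1 lower (516.4 to 697.3 and 650.9 to 910.7). Of 12 markers of hippocampal subfields 5 were in the table, among them Wfs1 and C1ql2, which were lower, and Bok, which was higher (503.7 to 551.5 and 458.2 to 477.1). Of 14 markers of choroid plexus, blood and neighbouring cortex 3 were in the table and none was called by limma (1 was lower at an unadjusted p under 0.05), with summed TPM of 16.16 to 24.62 and 14.48 to 36.32. None of the 12 general neuronal markers was in the table, so the neuronal content was not analysed here, and no listed marker was at 0 in all libraries. The part of these shifts in the members' differences was not tested.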

How the data were processed

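RNA was sequenced from the hippocampus of 3 vehicle-treated and 3 CORT-treated mice. The deposited table holds TPM values that the authors computed per gene and library after trimming and alignment. Per the submitters' processing notes, RSEM, HISAT2 and StringTie were used with GRCm39. The sources used here give neither tool versions nor the annotation. The table also holds the authors' own fold change, log2 fold change and p-value, which were not used. The columns headed WT were taken as vehicle, since the series has no group besides vehicle and CORT. Replicate numbers are those of the columns, which are not tied to sample titles. The treatment label reads cortisone, and the methods give corticosterone. TPM keeps no read number, so the depth is unknown.

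The log2(TPM + 1) values were fitted with limma 3.58.1 in R 4.3.3 (lmFit, eBayes with trend and robust options) over genes reaching a TPM of 1 in 3 or more libraries, with Benjamini-Hochberg adjustment over all 2241 and a threshold of 0.05. Fold changes on this scale understate those of low genes. The step was tested on simulated data, whose planted changes were larger than those of the called members and fell in a smaller share of genes. It therefore does not show how well changes as small as these are recovered. Members and gene lists were chosen with earlier results of these data known. Given in every library were, per role group, the 4 tested members with the smallest p and the one with the highest mean TPM, called members without overlap, members too low to test, and, by difference where not in every library, genes from the lists. One member that this rule names is not reported here and is left out of the figures, but stands in the counts and medians. Rbm14 beside Neat1 was added after its values were seen. GC content, annotation, overlaps and BLAST 2.17.0 matches (at least 80% identity over 200 bases) used GENCODE M21, of an earlier build than the authors', matched by identifier for 99.9% of genes. Promoters came from RefSeq on GRCm38.p6, and the motifs were chosen after the differences were seen. Tables and figures were made in Python 3.11.15 (matplotlib 3.10.9, numpy 2.4.6, pandas 2.3.3). Alternatives were other pseudocounts (0.1, 0.5), filters, scalings, a GC correction by a spline with 4 degrees of freedom, moderation without trend, and leaving out each library.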

Additional observations from a re-analysis of the deposited data

How the results depend on the processing

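The reported setting gave 6 members higher and 3 lower. Pseudocounts of 0.1 and 0.5 and a filter of TPM of at least 1 in all 6 libraries left both numbers as they were, and without a filter Rbm38 lost its call. Without the trend and robust options 6 were higher and 2 lower, as Ddx17 and Rbm38 lost their calls and Rbm24 passed (adjusted p = 0.0457 from limma). With quantile normalization 3 were higher. With median centring 6 were lower. With the GC correction 3 were higher and 5 lower, and with GC content taken from the longest transcript of any kind, an alternative chosen after seeing the data, 2 were higher and 5 lower. Leaving out each library in turn gave 1 to 9 members higher and 0 to 3 lower. The sign turned with the GC correction for Srsf10 (-0.049), Luc7l2 (-0.012) and Mbnl2 (-0.024), and with the second form of that correction for Srsf10 (-0.043), Tra2b (-0.012), Prpf38b (-0.036) and Luc7l2 (-0.0072), none of which passed in these fits. Outside the members it turned for Cdc40 (-0.0025), Pabpc1 (-0.013 and, in the second form, -0.061) and Rian (-0.15 and -0.11). The cause of these shifts was not tested. No other member changed sign in any of the 15 alternatives. No paired analysis was possible because the groups' titles share only replicate number 3 and the columns are not tied to titles. With 3 libraries per group and no read numbers, most called members lay close to the threshold, Dhx33 being the exception, and an adjusted p above 0.05 does not show that a gene was unchanged.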
